A study of Mus musculus with 12 samples.

Results

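TDP-43 aggregates were compared with a sham preparation in SIM-A9 cells, a mouse (C57BL/6) microglial cell line, that had received DMSO and no inhibitor. The comparison was defined by its labels alone and takes 6 of the 12 libraries of the series, 3 labelled DMSO_TDP43 and 3 labelled DMSO_NoAgg. The other 6 libraries received C13, an inhibitor of the kinase MOK, in place of DMSO. All cells, sham cells included, were first given 10 µM polymyxin B for 1 h. DMSO followed for 1 h. The aggregates or the sham preparation were then added at 5 µg/mL and stayed for 4 h in all. During the last 90 min of those 4 h, 100 µM 4-thiouridine marked RNA as it was made. Reads from mRNA 3′ ends that carried the marked base were counted as nascent, and all reads were counted as total. The labels call the libraries biological replicates but name no culture day, so the p-values measure the spread between these libraries. All cells come from 1 line, and the labels do not say how the aggregates or the sham were made.

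TDP-43, encoded by Tardbp, is a nuclear RNA-binding protein that is lost from the nucleus and aggregates in the cytoplasm of neurons in amyotrophic lateral sclerosis and in a form of frontotemporal dementia. Microglia are the resident phagocytes of the brain and take up protein aggregates. They sense them through surface and intracellular pattern receptors, whose adaptors activate NF-kB and MAP kinases and, by way of IRF factors, type I interferon. The first transcripts of such a response are usually chemokines, cytokines and feedback inhibitors of NF-kB. Polymyxin B binds bacterial lipopolysaccharide and is used to block the part of a response that such contamination would cause.

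Depth lay between 19635278 and 40601211 total reads and between 552042 and 2722812 nascent reads in the 6 libraries. The nascent share of reads was 3.40, 7.11 and 2.74% in the sham libraries and 2.81, 3.35 and 2.13% with aggregates, and the groups overlapped. The means were 4.42% ± 2.36 and 2.76% ± 0.611 (SD, n = 3 each; two-sided exact permutation p = 0.4, where 0.1 is the smallest value that 3 against 3 can give). The difference of -1.65 percentage points was -0.307 without sham replicate 2. Aggregate replicate 3 stood apart among the nascent libraries, with 6599 genes detected against 8075 to 9393 in the other 5, and list values that moved without it are given both ways. All 20 microglia and macrophage markers were tested in total RNA, and their summed level was 3230 to 3458 CPM with sham and 2987 to 3403 CPM with aggregates (CPM, read counts scaled to library size). Of 6 endothelial markers, 2 passed in both tables (Kdr and Flt1), with a summed total level of 161 to 206 CPM with sham and 148 to 180 CPM with aggregates. No marker of fibroblasts, neutrophils or lymphocytes passed the filter on low counts. Of 8 markers each, 1 astrocyte, 1 neuron and 1 oligodendrocyte marker passed it, with 4 of each 8 at 0 in all 6 total libraries. In bulk RNA, fewer cells of a type and less RNA per cell cannot be told apart.

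No gene passed the test in either table. Genes were compared with edgeR's quasi-likelihood test at a Benjamini-Hochberg adjusted p of 0.05, and 0 of 7078 nascent and 0 of 11827 total genes were called, with smallest adjusted p-values of 0.776 and 0.999. At an unadjusted edgeR p under 0.05 there were 226 nascent genes (3.19%), of which 87 (1.23%) were higher and 139 (1.96%) lower. There were 516 such total genes (4.36%), 199 (1.68%) higher and 317 (2.68%) lower. Without aggregate replicate 2 the nascent number was 444, and without aggregate replicate 1 it was 341. DESeq2, another count test, called 7 nascent and 8 total genes. The spread between replicates was wide: the common biological coefficient of variation was 96.2% in nascent and 60.2% in total reads, and the median standard error of a log2 fold change was 1.25 and 0.41. What follows therefore describes levels and differences, none of which passed the adjusted threshold in edgeR. All fold changes are aggregates minus sham on the log2 scale.

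**Figure D1:**
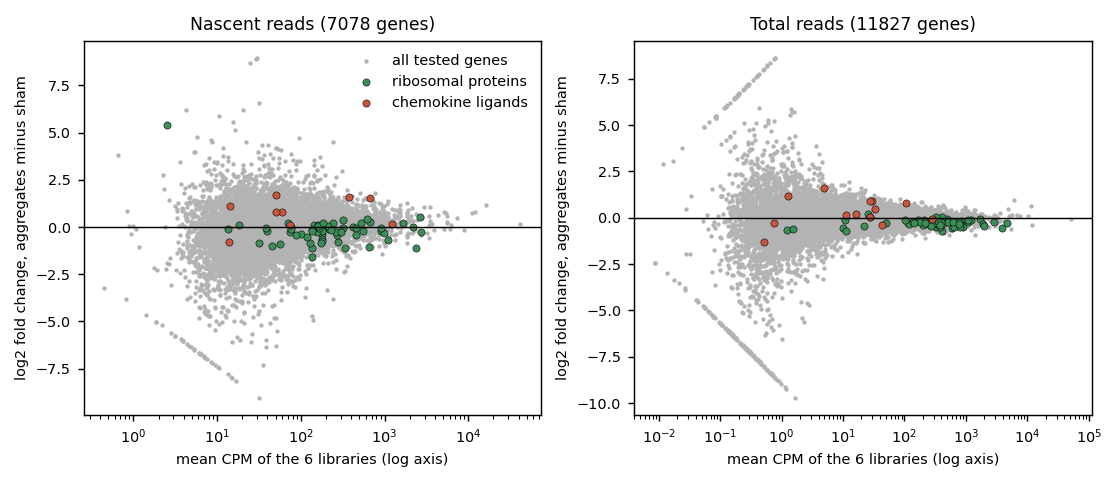
Log2 fold change (aggregates minus sham) against mean CPM of the 6 libraries on a log axis, for 7078 nascent genes (left) and 11827 total genes (right). Chemokine ligands (red) lie mostly above 0 in the nascent panel and ribosomal protein genes (green) mostly below 0 in the total panel; the slanted streaks are genes with no read in 1 of the groups.

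Nascent values were scaled within the nascent table, where the median gene moved by -0.04 (total table: -0.02). With total-table sizes, meaning the scaled depth of each library's total reads, the median nascent gene would lie at -0.84, so each nascent difference is relative to the other nascent RNAs of the same library. Among all tested genes, 48.2% of nascent and 48.5% of total fold changes were above 0. The middle 50% of fold changes ran from -0.81 to 0.63 in nascent and from -0.33 to 0.27 in total reads. As the background for what follows, all 3 aggregate libraries lay above all 3 sham libraries in 3.74% of nascent and 5.49% of total genes, and below them in 6.56% and 6.41%, so that the groups did not overlap in 10.3% and 11.9%. Some reads could belong to a neighbour, since Peli1, Irf9, Mapk14, Atg9a, Mef2a, Mff, Fndc3b, Ndufa10, Rpl4, Ncl, Psmb7, Hif1a, mt-Tw and Tapbp share part of their span with another annotated gene on the same strand. On the opposite strand the same holds for Tardbp, Cxcl10, Cyld, Oasl1, Nfkb2, Il1b, Il18, Eif2ak2, Elavl1, Khsrp, Cdkn1a, Arpc1b, Hmgcs1 and Exosc8, and the sources used here do not say whether counting used strand.

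Chemokine ligands draw leukocytes to a site. In nascent reads, 8 of 9 tested members were higher with aggregates, 2 of them without overlap between the groups, and the median fold change was 0.81. This rested in part on aggregate replicate 3, without which 6 of 9 were higher with a median of 0.24, and on scaling, since with total-table sizes 4 of 9 were higher and the median was -0.41. In total reads, 9 of 13 were higher, 4 without overlap, with a median of 0.21.

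Cxcl2, which encodes a neutrophil attractant and is an early NF-kB target, had nascent levels of 483, 212 and 335 CPM with sham and 830, 861 and 1260 CPM with aggregates. Its total levels were 78.0, 58.0 and 92.7 CPM with sham and 128, 145 and 128 CPM with aggregates. In both tables each aggregate library lay above each sham library. The fold change was 1.52 (SE 0.49; edgeR unadjusted p = 0.00645) in nascent and 0.81 (SE 0.26; edgeR unadjusted p = 0.00673) in total reads.

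Ccl4, a chemokine made by activated macrophages, had nascent levels of 254, 83.2 and 216 CPM with sham and 499, 485 and 700 CPM with aggregates. Total Ccl4 was 19.4, 21.7 and 19.5 CPM with sham against 36.8, 41.7 and 36.6 CPM with aggregates. Again neither table showed any overlap, and the total replicates of each group lay close together. The fold change was 1.61 (SE 0.70) in nascent and 0.93 (SE 0.36) in total reads.

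Ccl5, a chemokine that is induced by both NF-kB and interferon factors, was too low in nascent reads to be tested. In total reads it was the chemokine with the highest fold change, at 2.66, 3.00 and 1.55 CPM with sham and 7.53, 7.13 and 7.71 CPM with aggregates (fold change 1.63, SE 0.54). Cxcl10, an interferon-induced attractant of T cells, had total levels of 16.7, 19.6 and 20.7 CPM with sham and 32.1, 27.4 and 48.9 CPM with aggregates (fold change 0.93, SE 0.39). Both groups were separate in both genes. Nascent Cxcl10 was uneven, at 90.7, 18.6 and 0.921 CPM with sham and 5.02, 5.23 and 181 CPM with aggregates, and a single aggregate library held its high value.

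**Figure D2:**
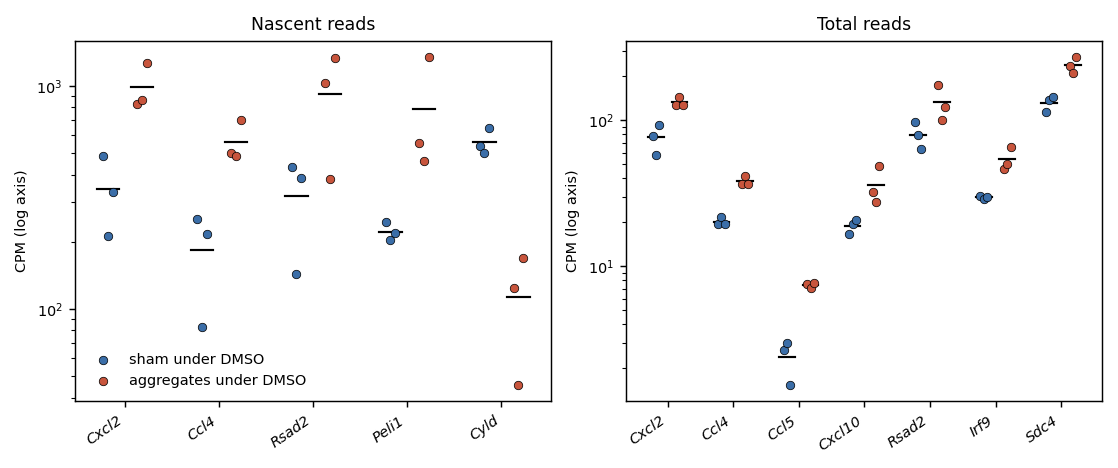
CPM in each library (points, log axis) and group mean (bars) for inflammatory genes and for Peli1 and Sdc4, which are on none of the lists, with sham in blue and aggregates in red, nascent reads on the left and total reads on the right. Nascent Cxcl2, Ccl4 and Peli1 and total Cxcl2, Ccl4, Ccl5, Cxcl10, Rsad2, Irf9 and Sdc4 have no aggregate library below a sham library, nascent Rsad2 overlaps, and nascent Cyld lies lower with aggregates.

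The promoters of Cxcl2, Cxcl10 and Rsad2 are shown as examples of an NF-kB target and of interferon-induced genes. Each is the 250 bases before the RefSeq start (GRCm38.p6), 5′ to 3′ on the gene's strand, with motif matches in capitals. The kB letters were GGGNNTTTC and the interferon-response (ISRE) letters GAAANNGAA, the cores of longer binding motifs. Both strands were searched, on which they read GAAANNCCC and TTCNNTTTC when reversed. The kB letters stand in 1223 of 32851 promoter windows of that length (3.72%) and the ISRE letters in 2342 (7.13%).
Cxcl2, chr5:90903649-90903898, + strand: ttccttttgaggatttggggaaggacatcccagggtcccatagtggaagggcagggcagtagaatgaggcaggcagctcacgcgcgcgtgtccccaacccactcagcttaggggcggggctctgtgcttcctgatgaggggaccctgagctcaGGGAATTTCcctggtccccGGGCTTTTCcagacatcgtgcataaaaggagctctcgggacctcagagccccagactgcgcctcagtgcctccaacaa
Cxcl10, chr5:92348890-92349139, - strand: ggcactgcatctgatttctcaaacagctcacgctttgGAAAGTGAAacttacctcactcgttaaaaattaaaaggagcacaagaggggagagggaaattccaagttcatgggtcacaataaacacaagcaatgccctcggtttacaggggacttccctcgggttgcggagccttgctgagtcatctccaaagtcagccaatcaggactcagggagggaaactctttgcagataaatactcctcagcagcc
Rsad2, chr12:26456453-26456702, - strand: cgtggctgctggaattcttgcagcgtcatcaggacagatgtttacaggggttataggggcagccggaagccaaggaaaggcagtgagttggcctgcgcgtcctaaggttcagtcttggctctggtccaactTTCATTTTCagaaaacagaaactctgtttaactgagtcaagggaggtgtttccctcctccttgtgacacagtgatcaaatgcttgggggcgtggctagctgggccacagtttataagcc
Cxcl2 holds 2 kB matches and no ISRE match, the first of them starting 97 bases before the start. Cxcl10 and Rsad2 each hold 1 ISRE match, 213 and 119 bases before the start, and no match to these kB letters. Other forms of the kB site were not searched, so a window without a match may still hold one. The windows of Peli1, Map2k3, Irf9, Oasl1 and Sdc4 hold neither set of letters, while Nfkb2 and Tank hold the kB letters once in each of their alternative windows.

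Among cytokines and inflammatory enzymes, 5 of 8 nascent and 12 of 18 total members were higher, with medians of 0.42 and 0.26. Leaving out aggregate replicate 3 gave 7 of 11 and 13 of 19, with medians of 0.24 and 0.13. With total-table sizes 1 of the 8 nascent members was higher. Tnf and Il1b, the classical early cytokines, did not separate the groups. Total Tnf was 68.5, 55.8 and 73.4 CPM with sham and 56.5, 73.1 and 60.4 CPM with aggregates (fold change -0.06, SE 0.25). Total Il1b was 45.4, 35.4 and 52.6 CPM with sham and 53.7, 37.4 and 36.4 CPM with aggregates (fold change -0.07, SE 0.31). Acod1, the enzyme that makes itaconate in activated myeloid cells, had total levels of 507, 469 and 380 CPM with sham and 591, 575 and 573 CPM with aggregates. Nascent Acod1 overlapped, as did all 8 tested nascent members of this list, whereas the total Acod1 groups did not overlap (fold change 0.36, SE 0.21). The growth factor gene Csf1 was likewise separate in total reads, at 159, 196 and 201 CPM with sham and 219, 266 and 212 CPM with aggregates. Il18, an interleukin activated by the inflammasome, was the member with the opposite pattern. Its total level was 45.2, 40.7 and 31.5 CPM with sham and 23.6, 20.4 and 12.03 CPM with aggregates, with each aggregate library below each sham library (fold change -1.07, SE 0.38). Il6, Ifnb1, Nos2 and Myc did not reach the nascent filter. Ifnb1 had 0 reads in every sham and aggregate library, nascent and total alike. Il6 was not tested in total reads either, with 3, 0 and 0 reads with sham and 0, 0 and 22 with aggregates.

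Type I interferon-stimulated genes, the antiviral effectors downstream of interferon, were higher in 13 of 18 nascent and 26 of 42 total members, with medians of 0.55 and 0.24. Without aggregate replicate 3 these were 17 of 22 and 29 of 44, with medians of 0.35 and 0.32, and without aggregate replicate 1 the total median was 0.05. With total-table sizes 10 of 18 nascent members were higher, with a median of 0.08. No nascent member separated the groups, and 4 total members lay above and 4 below the sham libraries. Rsad2, which encodes the antiviral enzyme viperin, had total levels of 96.8, 78.6 and 63.1 CPM with sham and 173, 100 and 124 CPM with aggregates (fold change 0.73, SE 0.26; edgeR unadjusted p = 0.0122). The total groups did not overlap. Nascent Rsad2 was 434, 143 and 388 CPM with sham and 1025, 381 and 1337 CPM with aggregates, where 1 aggregate library lay within the sham range (fold change 1.51, SE 0.55). Interferon regulators, a separate list, were higher in 10 of 18 nascent and 13 of 23 total members, with medians of 0.03 and 0.11. Irf9, the DNA-binding subunit of the interferon-activated ISGF3 complex, had the highest total fold change of that list. Total Irf9 was 30.3, 29.0 and 29.7 CPM with sham and 46.4, 50.4 and 65.5 CPM with aggregates. The 3 sham libraries were nearly equal and all aggregate libraries lay above them (fold change 0.87, SE 0.35). Oasl1, an interferon-stimulated restraint on IRF7 synthesis, overlapped in total reads at 27.8, 39.5 and 63.2 CPM against 58.9, 71.0 and 84.1 CPM. Eif2ak2, the double-stranded RNA sensor PKR, was lower, at 38.4, 46.8 and 39.5 CPM with sham and 28.9, 21.3 and 25.6 CPM with aggregates (fold change -0.72, SE 0.31). Interferon genes of different function thus lay on both sides of the sham level.

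**Figure D3:**
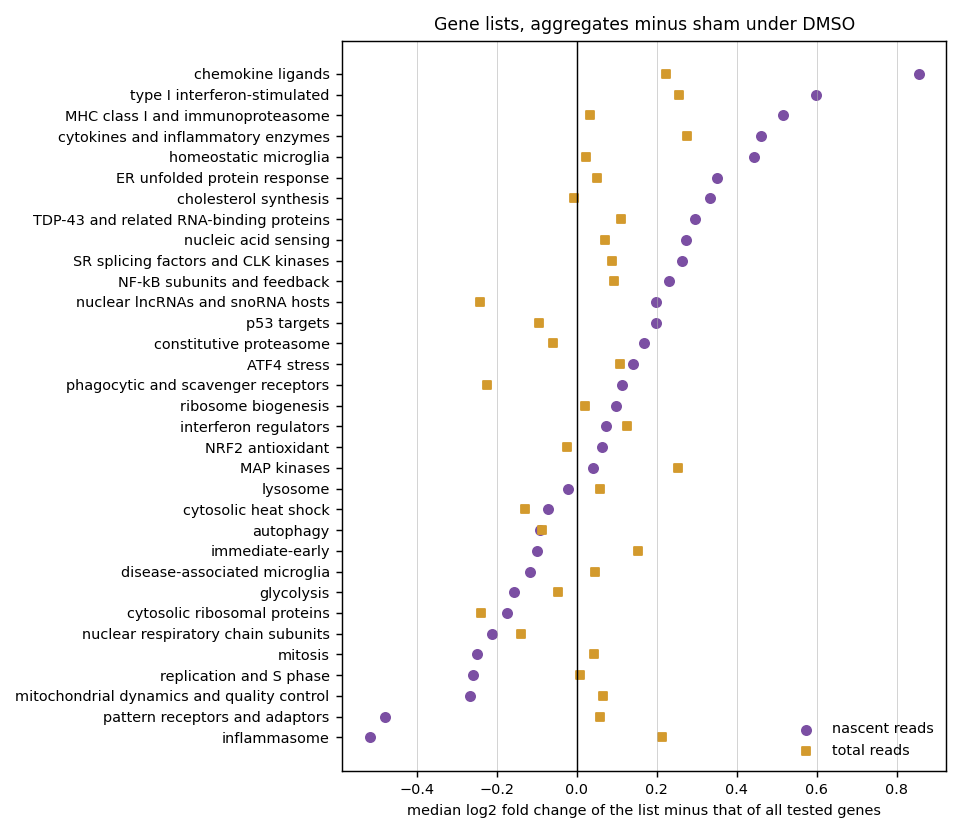
Median log2 fold change of each gene list with at least 8 tested members, minus the median of all tested genes, in nascent (circles) and total reads (squares). Chemokine ligands stand at 0.85 and 0.22 and interferon-stimulated genes at 0.60 and 0.26, while ribosomal protein genes stand at -0.17 and -0.24.

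Pattern receptors and their adaptors were higher in 6 of 15 nascent and 13 of 24 total members (medians -0.52 and 0.04), and inflammasome genes in 2 of 9 and 10 of 13 (medians -0.56 and 0.20). Without aggregate replicate 3 the nascent medians were -0.13 and -0.14, and 7 of 13 inflammasome genes were higher in total reads, with a median of 0.01. Of NF-kB subunits with their regulators, those higher numbered 17 of 31 nascent and 21 of 33 total members, with medians of 0.19 and 0.08. Without aggregate replicate 2 the nascent median was -0.09, with 15 members higher.

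Peli1, an E3 ubiquitin ligase of Toll-like receptor signalling that was named by its small p and is on none of the lists, had nascent levels of 244, 203 and 219 CPM with sham and 555, 458 and 1345 CPM with aggregates. In total reads Peli1 was 93.5, 134 and 131 CPM with sham and 145, 166 and 239 CPM with aggregates. No group overlapped, and the fold changes were 1.82 (SE 0.54; edgeR unadjusted p = 0.00346) and 0.62 (SE 0.25). Cyld, an NF-kB feedback gene that removes ubiquitin chains and so limits NF-kB, had nascent levels of 537, 499 and 648 CPM with sham and 124, 45.8 and 170 CPM with aggregates. Total Cyld was 572, 599 and 670 CPM with sham and 562, 381 and 528 CPM with aggregates. Each aggregate library of Cyld lay below each sham library in both tables, by far in nascent and narrowly in total reads (fold changes -2.32, SE 0.71, and -0.32, SE 0.18). Nfkb2, the p100 subunit, had nascent levels of 286, 190 and 366 CPM with sham and 397, 417 and 755 CPM with aggregates, and its total levels overlapped. Tank, an adaptor of the kinases TBK1 and IKKε from the nucleic acid sensing list, was separate in nascent reads at 82.5, 119 and 114 CPM against 281, 173 and 270 CPM.

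MAP kinase genes were higher in 8 of 18 nascent and 13 of 22 total members, with medians of 0.00 and 0.24. Leaving out aggregate replicate 3 gave 11 of 19 and 13 of 22, with medians of 0.12 and 0.17. Map2k3, an activator of p38, had nascent levels of 248, 179 and 114 CPM with sham and 340, 436 and 759 CPM with aggregates (fold change 1.50, SE 0.58). Mapk14, which encodes p38α itself, had 272, 116 and 40 nascent reads with sham and 0, 4 and 0 with aggregates. Both genes separated the groups, in opposite directions. Total Mapk14 overlapped, at 98.0, 72.8 and 118 CPM with sham and 44.4, 62.4 and 92.9 CPM with aggregates. Spred1, an inhibitor of the Ras-ERK pathway, had total levels of 67.4, 70.4 and 67.6 CPM with sham and 105, 95.6 and 107 CPM with aggregates. These replicates agree closely within each group (fold change 0.58, SE 0.22). Mok, the kinase that C13 targets, was close to the detection limit in total reads, at 1.39, 0.162 and 3.42 CPM with sham and 7.73, 0.988 and 2.05 CPM with aggregates, and was not tested in nascent reads. Immediate-early genes were higher in 8 of 17 nascent and 18 of 29 total members (medians -0.14 and 0.14). Without aggregate replicate 3 both medians were on the other side of 0, at 0.16 with 10 of 18 and -0.12 with 14 of 30.

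Genes of uptake and of the disease-associated microglia state, which phagocytes take on near plaques, were not higher throughout. Disease-associated genes were higher in 7 of 25 nascent and 14 of 26 total members (medians -0.16 and 0.03). Without sham replicate 2 their nascent count was 12 of 26, with a median of -0.04. Phagocytic and scavenger receptors were higher in 10 of 17 nascent and 8 of 22 total members (medians 0.07 and -0.24). The phagocytic receptors without aggregate replicate 3 stood at 7 of 18 and 10 of 22, with medians of -0.21 and -0.07. Trem2, a lipid-sensing receptor of microglia, had nascent levels of 129, 61.5 and 62.6 CPM with sham and 3.35, 36.6 and 3.85 CPM with aggregates. Its total levels were 117, 140 and 121 CPM with sham and 116, 108 and 102 CPM with aggregates. Trem2 was thus lower in each aggregate library in both tables, with fold changes of -2.46 (SE 1.16) and -0.22 (SE 0.20). Sirpa, the receptor for the signal CD47 that restrains phagocytosis, had total levels of 1137, 1172 and 1220 CPM with sham and 948, 846 and 989 CPM with aggregates (fold change -0.34, SE 0.17). Total Gpnmb, a lysosome-associated glycoprotein, was 6107, 4807 and 5117 CPM with sham and 4580, 4174 and 4105 CPM with aggregates. Total Cd63, a tetraspanin of late endosomes, was 2395, 3135 and 2172 CPM with sham and 2125, 1731 and 1836 CPM with aggregates. Neither gene's groups overlapped.

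Lysosome genes were higher in 15 of 32 nascent and 20 of 33 total members, and autophagy genes in 8 of 21 and 11 of 28. Lamp2, a membrane protein of lysosomes, was 436, 430 and 462 CPM with sham and 509, 516 and 647 CPM with aggregates in total reads (fold change 0.33, SE 0.17). Atg9a, the lipid scramblase of early autophagosomes, was 17.8, 19.98 and 25.2 CPM with sham and 27.2, 58.9 and 48.2 CPM with aggregates (fold change 1.09, SE 0.34). Both were separate between the groups. Homeostatic microglia genes were higher in 8 of 10 nascent and 10 of 20 total members (medians 0.40 and 0.01), and with total-table sizes in 4 of the 10. Without aggregate replicate 2 their nascent median was -0.11. Mef2c, a transcription factor of microglial identity, had nascent levels of 2573, 1333 and 1891 CPM with sham and 3321, 3148 and 5550 CPM with aggregates, while its total levels overlapped. Its relative Mef2a had total levels of 65.3, 57.4 and 65.0 CPM with sham and 85.2, 95.3 and 119 CPM with aggregates.

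Tardbp itself overlapped in both tables. Its nascent levels were 1395, 844 and 948 CPM with sham and 1253, 1122 and 1411 CPM with aggregates. Its total levels were 927, 763 and 1038 CPM with sham and 913, 781 and 666 CPM with aggregates (fold changes 0.25, SE 0.56, and -0.21, SE 0.18). Of the RNA-binding proteins related to TDP-43, 20 of 32 nascent and 20 of 33 total members were higher, and with total-table sizes 4 of the 32. Their nascent median of 0.25 was 0.05 without aggregate replicate 3, with 18 of 33 higher. Elavl1, which stabilises mRNAs with AU-rich elements, had the highest total fold change of the list, at 108, 108 and 89.2 CPM with sham and 148, 144 and 182 CPM with aggregates (fold change 0.63, SE 0.23). Khsrp, which promotes decay of such mRNAs and was named by its small p from outside the list, was 116, 123 and 80.4 CPM with sham and 154, 153 and 238 CPM with aggregates (fold change 0.77, SE 0.24). The groups were separate in both genes.

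Cytosolic heat shock genes were higher in 10 of 23 nascent and 8 of 23 total members, against 48.2 and 48.5% of all genes. Hspa4, an HSP110 chaperone that helps to dissolve protein aggregates, had total levels of 324, 158 and 404 CPM with sham and 180, 112 and 122 CPM with aggregates. The groups overlapped, because sham replicate 2 was low (fold change -1.10, SE 0.30; edgeR unadjusted p = 0.00256). ATF4 stress genes were higher in 13 of 19 nascent and 14 of 22 total members, and in 7 nascent members without aggregate replicate 2. Gdf15, a stress cytokine, had total levels of 43.7, 69.1 and 61.8 CPM with sham and 71.0, 95.2 and 96.7 CPM with aggregates (fold change 0.59, SE 0.27). Cdkn1a, the cell cycle inhibitor p21, was 257, 337 and 376 CPM with sham and 397, 494 and 567 CPM with aggregates in total reads. Nascent Cdkn1a was 223, 186 and 267 CPM with sham and 351, 410 and 636 CPM with aggregates. Cdkn1a was separate in both tables (fold changes 0.59, SE 0.23, and 1.05, SE 0.51), although 6 of 17 total members of the p53 target list were higher. NRF2 antioxidant genes were higher in 13 of 26 nascent and 11 of 27 total members, and Hmox1, which degrades heme, overlapped in both tables.

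The lowest p of all nascent genes belonged to Mff (chr1:82724890-82752394, GRCm38), the receptor that recruits the fission enzyme DRP1 to mitochondria. Nascent Mff was 183, 355 and 238 CPM with sham, from 222, 1050 and 258 reads, and 10.0, 7.85 and 11.6 CPM with aggregates, from 6, 12 and 6 reads. Total Mff was 171, 212 and 197 CPM with sham and 156, 190 and 227 CPM with aggregates. The nascent groups were far apart and the total groups overlapped, with fold changes of -4.72 (SE 0.96; edgeR adjusted p = 0.776) and -0.02 (SE 0.21). As a share of the gene's own reads, nascent Mff was 4.12, 13.4 and 3.39% with sham and 0.196, 0.149 and 0.0845% with aggregates. When nascent reads were compared with the other reads of the same gene in 1 edgeR fit, 0 of 7078 genes were called and 188 (2.66%) had an unadjusted p under 0.05, and Mff again had the lowest p (difference -4.75, SE 0.84, edgeR adjusted p = 0.233). DESeq2 called nascent Mff, with an adjusted p of 3.92e-05. Across its list of mitochondrial dynamics and quality control, 4 of 18 nascent and 12 of 22 total members were higher. Without sham replicate 2 the nascent count of this list was 10 of 20. Mff shares part of its span with other annotated genes on both strands.

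**Figure D4:**
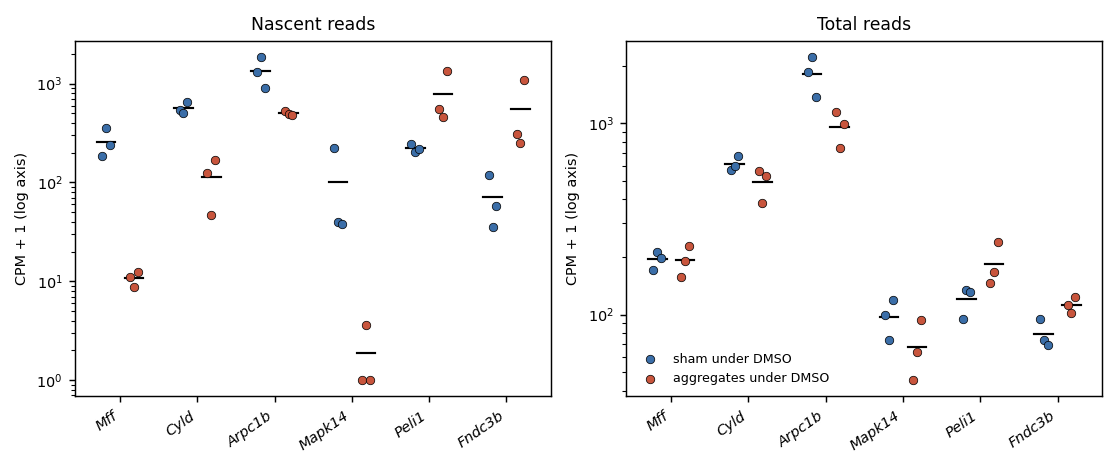
CPM + 1 in each library (points, log axis) and group mean (bars) for 6 genes named for their nascent difference, with nascent reads on the left and total reads of the same genes on the right. Nascent Mff, Cyld, Arpc1b and Mapk14 lie lower and Peli1 and Fndc3b higher in all 3 aggregate libraries; in total reads Mff and Mapk14 overlap and the other 4 stay separate.

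The share of mitochondrial ribosomal RNA in total reads was 1.17, 1.49 and 1.31% with sham and 1.71, 2.52 and 2.47% with aggregates. All aggregate libraries lay above all sham libraries (means 1.32% ± 0.160 and 2.23% ± 0.454, SD, n = 3 each; two-sided exact permutation p = 0.1, the smallest possible). Several library measures were compared in this way. In nascent reads neither of the 2 mitochondrial ribosomal RNAs separated the groups. Their summed nascent level was 8397 to 16920 CPM with sham and 15920 to 32610 CPM with aggregates. Total mt-Rnr1, the small-subunit RNA, was 2639, 4944 and 4882 CPM with sham and 5695, 8208 and 10010 CPM with aggregates (fold change 0.94, SE 0.33). Total mt-Rnr2, the large-subunit RNA, followed the same order with a fold change of 0.61 (SE 0.22). The part of this share in the values of other genes was not tested. Of the nuclear genes for respiratory chain subunits, 12 of 44 were higher in each table, with medians of -0.26 in nascent and -0.16 in total reads. Without sham replicate 2 the nascent count was 22 and the median 0.00. Of the 44, 5 lay below all sham libraries and 1 above in nascent reads, and likewise in total reads. Ndufa10, a complex I subunit, was 265, 229 and 194 CPM with sham and 180, 146 and 116 CPM with aggregates in total reads (fold change -0.64, SE 0.24).

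**Figure D5:**
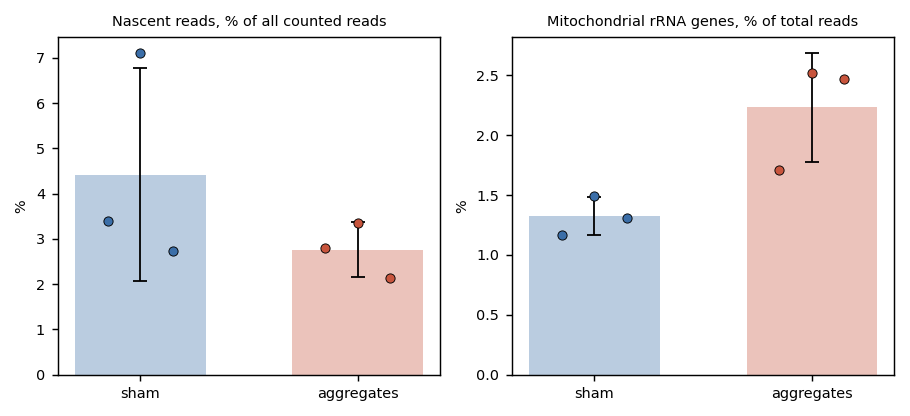
Nascent reads as a percentage of all counted reads (left) and mitochondrial ribosomal RNA genes as a percentage of total reads (right), with bars for the group mean, error bars for the SD and a point for each of the 3 libraries. The nascent shares overlap, while the mitochondrial shares of 1.17 to 1.49% with sham and 1.71 to 2.52% with aggregates do not.

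Of the cytosolic ribosomal protein genes, 4 of 61 were higher in total reads, with a median of -0.26, and 17 of 59 in nascent reads, with a median of -0.22. The differences were small: 1 of the 61 lay below all sham libraries and none above. The pattern rested on sham replicate 2, without which 40 of 61 total and 31 of 59 nascent members were higher, with medians of 0.13 and 0.06. The summed total level of the list was 36080, 56330 and 30050 CPM with sham and 32510, 36020 and 31200 CPM with aggregates, so that only sham replicate 2 stood apart. Ribosome biogenesis genes were higher in 17 of 32 nascent and 16 of 32 total members. Rpl4, a large-subunit protein, had total levels of 555, 637 and 322 CPM with sham and 304, 306 and 327 CPM with aggregates, and sham replicate 3 lay among the aggregate libraries (fold change -0.69, SE 0.25). Ncl, the nucleolar protein nucleolin of the biogenesis list, was 1804, 1153 and 1442 CPM with sham and 1005, 742 and 1058 CPM with aggregates, without overlap (fold change -0.65, SE 0.21). Of the constitutive proteasome subunits, 17 of 30 were higher in nascent reads, with a median of 0.13. Without sham replicate 3 the nascent count was 13 of 31, with a median of -0.28. In total reads 10 of 31 were higher, and 7 lay below all sham libraries, where 6.41% of all tested total genes did. Psmb7, a catalytic subunit, was 119, 143 and 89.8 CPM with sham and 67.5, 73.0 and 52.9 CPM with aggregates (fold change -0.87, SE 0.26).

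In lipid and sugar metabolism, 14 of 21 nascent and 12 of 25 total cholesterol synthesis genes were higher. Hmgcs1, which makes HMG-CoA, had nascent levels of 546, 621 and 709 CPM with sham and 766, 875 and 2463 CPM with aggregates (fold change 1.13, SE 0.48). Glycolysis genes were higher in 7 of 20 nascent and 5 of 20 total members. Hif1a, a transcriptional activator of glycolysis that was listed with them, had the highest fold change of the list in each table. Total Hif1a was 126, 144 and 98.4 CPM with sham and 173, 191 and 170 CPM with aggregates. The groups of both genes were separate. Replication genes were higher in 10 of 25 nascent and 12 of 27 total members, and mitosis genes in 10 of 24 and 14 of 26. Without aggregate replicate 3 the nascent replication count was 11 of 26, with a median of -0.06 in place of -0.30.

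The total genes with the smallest p outside these lists were led by Sdc4, a cell-surface heparan sulfate proteoglycan. Total Sdc4 was 114, 137 and 145 CPM with sham and 234, 209 and 270.5 CPM with aggregates (fold change 0.85, SE 0.19; edgeR unadjusted p = 0.000424). Nascent Sdc4 was 174, 124 and 156 CPM with sham and 266, 180 and 424 CPM with aggregates. Sdc4 was separate in both tables, and DESeq2 called it in total reads (adjusted p = 0.0167). Srd5a3, an enzyme of dolichol synthesis, was 8.71, 12.99 and 14.4 CPM with sham and 32.1, 18.3 and 46.0 CPM with aggregates (fold change 1.41, SE 0.38). Exosc8, a subunit of the RNA exosome, was the opposite case at 162, 122 and 91.7 CPM with sham and 65.5, 54.7 and 51.0 CPM with aggregates (fold change -1.13, SE 0.26). Spr, which makes the cofactor tetrahydrobiopterin, was 319, 301 and 318 CPM with sham and 190, 163 and 217 CPM with aggregates (fold change -0.72, SE 0.19). The mitochondrial tryptophan tRNA mt-Tw was 77.1, 102 and 76.9 CPM with sham and 42.4, 42.0 and 21.7 CPM with aggregates (fold change -1.27, SE 0.29), below the sham libraries while the mitochondrial ribosomal RNAs lay above them.

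Among nascent genes outside the lists, Fndc3b, a membrane protein, had the smallest p of the higher genes, at 117, 34.5 and 57.1 CPM with sham and 308, 249 and 1095 CPM with aggregates (fold change 2.98, SE 0.80). Arpc1b, a subunit of the ARP2/3 complex that branches actin filaments, was 1309, 1864 and 895 CPM with sham and 534, 489 and 478 CPM with aggregates (fold change -1.44, SE 0.44). Total Arpc1b was 1853, 2224 and 1365 CPM with sham and 1151, 741 and 985 CPM with aggregates, so that both tables were separate in the same direction (total fold change -0.92, SE 0.30). Several of the lower nascent genes had close to no nascent read with aggregates. Ppp5c, a phosphatase that binds HSP90, had 92, 59 and 123 nascent reads with sham and 0, 1 and 0 with aggregates. Sap30l, of a histone deacetylase complex, had 71, 214 and 103 against 0, 1 and 1. Total Ppp5c overlapped, at 66.5, 32.6 and 82.0 CPM with sham and 53.9, 47.9 and 68.6 CPM with aggregates.

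Across gene classes, the direction of the nascent difference went with the gene's level and nascent share. Both were computed over all 12 libraries, the aggregate libraries included. A gene that is high with aggregates is thereby moved to a higher part, so the order cannot be read as separate from the difference itself. When tested nascent genes were ordered by nascent share in 4 equal parts, 41.0, 43.9, 50.0 and 57.8% were higher from the lowest to the highest part. By nascent level the corresponding values were 42.3, 44.3, 45.8 and 60.2%. Total reads, which are the denominator of the nascent share, did not show this order for it, at 51.0, 49.6, 49.8 and 43.4%. The part of this order in the values of single genes was not tested. Histone genes were higher in 9 of 9 nascent members, with a median of 1.24. Of these, 4 lay above all sham libraries, where 3.74% of all tested nascent genes did. Values without single libraries or with total-table sizes were not computed for this class. In total reads, where more members passed the filter, 11 of 31 histone genes were higher, with a median of -0.44, so the 2 sets differ. Long intergenic RNAs were higher in 20 of 30 nascent and 74 of 179 total members, and microRNA genes in 34 of 46 total members.

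Aggregates and sham under C13 gave a further set of 6 libraries, which were part of the same fit. The difference between the arms was tested as an interaction, and 0 of 7078 nascent and 0 of 11827 total genes were called by edgeR, with 537 (7.59%) and 941 (7.96%) at an unadjusted p under 0.05. Under C13 the fold change of Mff in nascent reads was -3.99, of Cxcl2 1.05 and of Rsad2 1.16, on the same side as under DMSO. That of nascent Ccl4 was -0.16 and of Peli1 -0.35. In total reads under C13, Ccl5 stood at 1.25, Rsad2 at 1.22 and Cxcl10 at 2.15, while Sdc4 stood at -0.16, Exosc8 at 0.79, mt-Rnr1 at -0.95 and Hspa4 at 1.04. The last 4 lay on the other side of 0 from their value under DMSO. The unadjusted edgeR interaction p was 0.0018 for Sdc4, 0.000101 for Exosc8, 0.000986 for mt-Rnr1 and 0.000167 for Hspa4, and none passed adjustment. All 4 were named by their p under DMSO. That difference is part of the interaction, so these p-values lean towards small.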

How the data were processed

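Cells had been labelled with 4-thiouridine, RNA was treated with iodoacetamide, and 3′ end libraries were made, per the labels' protocols. The deposited values are raw counts for 30994 Ensembl genes in 12 libraries, in a nascent and a total table. GRCm38 is the build that the submitters' processing notes name. How reads were aligned, counted and judged nascent is not given in the sources used here. Symbols came from GENCODE M21, which matched 30940 identifiers. Among 9932 genes averaging over 50 total reads, 1917 had counts that were all multiples of one number of at least 2.

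Genes passing filterByExpr were TMM-scaled inside their own table. edgeR 4.0.16 (R 4.3.3) gave the quasi-likelihood test, with 4 group means over all 12 libraries and a Benjamini-Hochberg threshold of 0.05. The test was also run on data simulated with a smaller spread than these libraries show, so that run does not measure its power here. A standard error is the fold change over the root of F, and CPM use TMM-scaled sizes. A list is described over the members that passed the filter, which favours genes high in either group. Named genes were the 10 per direction with the smallest p among genes without overlap and with at least 20 nascent or 100 total reads in the higher group, 5 per direction for nascent against other reads, 4 per list, and fixed genes such as Mok. Total values of Acod1, Arpc1b, Csf1, Fndc3b, Peli1, Ppp5c and Trem2 and nascent values of Sdc4 fall outside this rule and were added after they were seen. Members and lists were chosen with earlier results of these data known. Replicates are distinct libraries (smallest chi-square per degree of freedom 27.7). Alternatives used DESeq2 1.42.0 and limma 3.58.1.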

Additional observations from a re-analysis of the deposited data

How the results depend on the processing

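The counts of called genes depended on the filter and the test. With no filter beyond 1 read, edgeR called 6 nascent genes (Bc1, Dtx2, Madd, Nod2, Pqlc1 and Ss18), 10 total genes, among them Hspa4, Exosc8 and mt-Tw (adjusted p 0.0302, 0.036 and 0.0302), and 2 genes for nascent against other reads (Dtx2 and Mff). DESeq2 called 7 nascent and 8 total genes, among them nascent Mff, Ppp5c and Sap30l and total Sdc4 and mt-Tw. The cause was not tested. The count was 0 in both tables with DESeq2's size factors, only the 6 libraries, counts divided by their shared factor, voom with sample weights, and without any single library (0 to 0, also for nascent against other reads), and in nascent reads with the library sizes of the total table.

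Deviations of same-numbered libraries correlated weakly and positively, at 0.0294 to 0.0391 in nascent and 0.0148 to 0.0635 in total reads. Such values cannot decide whether libraries of the same number were paired, given 3 libraries per group and the wide spread between replicates. With the replicate block 0 genes were called in both tables. The difference in nascent share was -1.65 percentage points, the same with the replicate block (exact sign-flip p = 0.25), and ran from -2.49 to -0.307 without single libraries, where leaving out sham replicate 2 gave -0.307. It was -1.63 without the mitochondrial genome and -1.66 with counts divided by their shared factor.

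Of the gene values, 303 of 308 nascent and 601 of 611 total values under the alternatives kept their direction. Many of these genes were named because their groups did not overlap. Leaving out a single library keeps the remaining groups of such a gene apart. Their direction was thus nearly fixed beforehand, and these counts do not measure how stable the differences are. Nascent Cxcl10 turned to -1.10 with voom weights and -0.573 with total-table sizes, and ran from -2.81 (without aggregate replicate 3) to 2.66 without single libraries. Total-table sizes also turned nascent Tardbp to -0.537 and Tapbp to -0.0178. Leaving out single libraries turned total values that lay near 0 or at few reads: Mff ran from -0.164 to 0.106, Tnf from -0.172 to 0.0182, Il1b from -0.271 to 0.062, Ppp5c from -0.379 to 0.19 and Mok from -0.131 to 2.19. Of 891 list medians, 834 moved by less than the spread between replicates. That spread is the list's own and is wide where a single library stands apart, so medians that changed sign are among the 834. Nascent ribosomal protein genes, at -0.22 and at 0.06 without sham replicate 2, are an example. Homeostatic microglia genes, at 0.40 and at -0.11 without aggregate replicate 2, are another.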

Other observations

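Genes of MHC class I presentation and the immunoproteasome, which display peptides to cytotoxic T cells, were higher in 13 of 16 nascent and 11 of 21 total members, with medians of 0.47 and 0.02. With the library sizes of the total table, 3 of the 16 nascent members were higher, and without aggregate replicate 2 the nascent median was -0.05. Tapbp, the peptide-loading chaperone tapasin, had nascent levels of 97.3, 130 and 47.9 CPM with sham and 184, 156 and 247 CPM with aggregates, and each aggregate library lay above each sham library (fold change 1.09, SE 0.61, edgeR adjusted p = 1.0). Genes of the unfolded protein response of the endoplasmic reticulum were higher in 11 of 18 nascent and 13 of 24 total members, and splicing factors of the SR family with their CLK kinases in 15 of 24 and 13 of 25. Without aggregate replicate 3 the nascent counts were 10 of 20 and 13 of 24, with medians of -0.02 and 0.02. Genes that sense nucleic acids in the cytosol were higher in 10 of 13 nascent and 9 of 17 total members, with medians of 0.23 and 0.05. Without aggregate replicate 3 these were 10 of 14 and 8 of 17, with medians of 0.67 and 0.00.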
